A study of Mus musculus with 2 samples.

Results

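Fragments of mitochondrial tRNAs were followed in 2 small RNA libraries, 1 of the nuclear pellet and 1 of the cytoplasm of mouse dendritic cells. A sequence was a member when it matched 1 of the 22 mitochondrial tRNA genes of GENCODE vM21 on the sense strand, either in full, with the CCA that tRNAs gain at their 3′ end, or with up to 3 other unmatched bases at its 3′ end. Of 538100 distinct sequences of 18 to 39 nt, 958 were members. Of these, 327 had reads in the nuclear library, 768 in the cytoplasmic library and 137 in both.

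The stated aim was to find nuclear-enriched small RNAs of innate immune cells. Both libraries came from C57BL/6 bone marrow cells cultured for 7 days with GM-CSF and IL-4, which drive bone marrow precursors towards dendritic cells, and treated with lipopolysaccharide (LPS), which Gram-negative bacteria carry on their surface. How much LPS was used, and for how long, is not given in the sources used here, and neither library was from unstimulated cells. The fractions were split by swelling in an NP40 buffer and a spin, so the pellet can hold more than nuclei.

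The nuclear library held 2000019 listed reads and the cytoplasmic library 2041383, and levels are given as RPM, on a library size common to both. Each group is 1 library, so no value has a replicate check and every comparison is between these 2 libraries. The 95% intervals are exact but hold counting error alone, because without molecular identifiers PCR copies cannot be told from separate molecules. RNAs known from the nucleus were higher in the nuclear library, by 31.2-fold for small nucleolar RNAs, 15.0-fold for small Cajal body RNAs, 6.04-fold for Malat1 and 15.2-fold for Neat1. All 5 myeloid marker miRNAs had reads in both libraries, summing to 8714 nuclear and 9381 cytoplasmic RPM. Mir155 was the largest of them, at 6110 and 4415 RPM, and the only one higher in the nuclear library. Mir223, Mir142, Mir342 and Mir511 were higher in the cytoplasmic library, by 1.54-, 1.69-, 2.95- and 2.26-fold. Of 12 marker miRNAs of other cell types, 9 had nuclear and 12 cytoplasmic reads, with sums of 648 and 514 RPM. Of these, Mir451a, Mir145a and Mir150, markers of erythroid, smooth muscle and lymphoid cells, had 0 nuclear reads, and 2, 2 and 1 cytoplasmic ones. Mir122, a hepatocyte marker, had 287 nuclear and 24 cytoplasmic reads, Mir1a-1, a marker of striated muscle, 108 and 7, and Mir143, of smooth muscle, 133 and 64. The epithelial Mir200a, with 14 and 77 reads, Mir200b, with 86 and 165, and Mir200c, with 75 and 135, were higher in the cytoplasmic library. Mir199a-1, a stromal marker with most reads of the 12, had 566 and 546, a nuclear over cytoplasmic ratio of 1.06 (0.939 to 1.19). The neuronal Mir124a-1 had 21 and 25 reads and the endothelial Mir126a 7 and 2. The part of other cells in the results on mitochondrial tRNAs was not tested.

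Mammalian mitochondria encode their own set of tRNAs, which read the codons of the few proteins made inside the organelle. Most of these genes lie between the rRNA and mRNA genes of 2 long precursor transcripts, 1 from each strand, and are cut out by RNase P at their 5′ end and RNase Z at their 3′ end. The enzyme TRNT1 then adds the CCA to which the amino acid is attached, since the genes do not encode it. Many are shorter or looser than cytosolic tRNAs, and mt-Ts2, a serine tRNA, lacks the D arm. A purine at position 9 is commonly methylated by the complex that also holds RNase P activity.

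The 8 tRNAs with most reads are shown with the added CCA at the end, 5′ to 3′, to show which stretch of each the fragments came from. Capitals mark the fragment with most reads over both libraries, and all other bases are in lower case. Gene sequences are those of GENCODE vM21 on GRCm38, the assembly also named mm10.
mt-Ts2 (serine): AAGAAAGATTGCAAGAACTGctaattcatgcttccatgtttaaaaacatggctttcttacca
mt-Tv (valine): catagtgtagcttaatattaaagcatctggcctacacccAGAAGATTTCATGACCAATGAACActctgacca
mt-Tl1 (leucine): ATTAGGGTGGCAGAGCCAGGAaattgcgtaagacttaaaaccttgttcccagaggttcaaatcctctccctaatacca
mt-Tw (tryptophan): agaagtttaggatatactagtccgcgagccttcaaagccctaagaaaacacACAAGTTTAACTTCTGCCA
mt-Td (aspartate): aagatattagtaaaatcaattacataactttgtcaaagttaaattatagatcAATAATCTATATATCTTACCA
mt-Tm (methionine): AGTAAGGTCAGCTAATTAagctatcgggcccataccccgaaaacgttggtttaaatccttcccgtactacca
mt-Tq (glutamine): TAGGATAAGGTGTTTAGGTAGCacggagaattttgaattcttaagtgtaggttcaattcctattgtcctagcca
mt-Te (glutamate): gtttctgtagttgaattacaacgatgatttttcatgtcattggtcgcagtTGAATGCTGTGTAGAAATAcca

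The genes lie on the mitochondrial chromosome at chrM:11613-11671 (mt-Ts2), chrM:1025-1093 (mt-Tv), chrM:2676-2750 (mt-Tl1), chrM:4950-5016 (mt-Tw), chrM:6942-7011 (mt-Td) and chrM:3845-3913 (mt-Tm), all on the plus strand. Those of mt-Tq (chrM:3772-3842) and mt-Te (chrM:14071-14139) are on the minus strand. Each gene is a single exon without a UTR. In mt-Ts2, mt-Tl1, mt-Tm and mt-Tq the leading fragment began at base 1 of the tRNA. In mt-Tw and mt-Td it ended in a complete CCA, in mt-Te it ended at the last gene base with no CCA, and in mt-Tv it lay inside the tRNA, from base 40 to base 63.

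Mitochondrial tRNA fragments were a larger share of the cytoplasmic than of the nuclear library. The members summed to 1314 nuclear and 4348 cytoplasmic reads, which is 657 and 2130 RPM, or 0.0657% and 0.213% of all reads. The cytoplasmic excess, the cytoplasmic over the nuclear RPM, was 3.24-fold (95% interval 3.05 to 3.45), which gives a log2 ratio of nuclear over cytoplasmic RPM of -1.70. Fragments of the 2 mitochondrial rRNAs, from the same organelle, had 3667 and 4465 reads, a cytoplasmic excess of 1.19-fold (1.14 to 1.25). Fragments of the 13 mitochondrial mRNAs had 950 and 1579 reads, an excess of 1.63-fold (1.50 to 1.77). The interval for the tRNAs overlapped neither of these. Without mt-Ts2 and the fragments from the 3′ end of any tRNA, the tRNA excess was 1.48-fold (1.37 to 1.60). That interval overlapped the one of the mRNAs but not the one of the rRNAs. Fewer organelles in a fraction and less RNA for each organelle cannot be told apart in such data.

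By tRNA, 18 of the 22 had at least 50 reads over both libraries. A tRNA was called lower or higher in the nuclear library where the log2 ratio, with 0.5 reads added to each count, reached 2-fold and the interval excluded 1. By this rule 11 of the 18 were lower, 1 was higher and 6 were neither, with a median log2 ratio of -2.08. Over all 983 small RNA entries with that many reads, 10.5% were lower and 43.5% higher, with a median of 0.72. The 15 single member sequences with at least 50 reads gave 9 lower and 0 higher, against 27% lower and 40.1% higher among all 3867 sequences of that depth. The lower ones include the mt-Ts2 fragments from base 1 that end at bases 18 to 22, which overlap each other and are not separate members of the set.

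These ratios depend on how the libraries are scaled, which shifts them all alike and leaves the differences between tRNAs and between positions as they are. Scaling to the miRNA total raised every log2 ratio by 0.88 and scaling to the mitochondrial rRNA total by 0.25, while TMM factors lowered them by 0.66 and the median of ratios by 0.72. A cytoplasmic excess under 1.85-fold therefore turned under scaling to the miRNA total, as for the mitochondrial rRNAs and mRNAs, and a nuclear excess under 1.64-fold turned under the median of ratios. Those scalings called 10 and 13 tRNAs lower, TMM factors called 13 and the mitochondrial rRNA total 10. The number called higher was 2 under the miRNA total and 0 under TMM or the median of ratios, where mt-Tp lost its call. Among the 18 tRNAs, mt-Tq, mt-Tl1, mt-Tv, mt-Tm, mt-Tn and mt-Ts1 changed sign under at least 1 scaling.

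mt-Ts2 had most reads, 157 nuclear and 1766 cytoplasmic, or 78.5 and 865 RPM. The excess was 11.0-fold (9.36 to 13.1), and its fragments made up 40.6% of all cytoplasmic but 11.9% of all nuclear member reads. mt-Tw, the tryptophan tRNA, had 14 and 327 reads, a cytoplasmic excess of 22.9-fold (13.4 to 42.3). mt-Td, the aspartate tRNA, had 12 and 260 reads, a cytoplasmic excess of 21.2-fold (11.9 to 41.6). The intervals of mt-Tw and mt-Td overlapped, so their order was not resolved. The value of mt-Tw rested on few sequences. Without the most-read sequence of each tRNA the log2 ratio of mt-Tw went from -4.47 to -2.09, that of mt-Ts2 was -3.20 and that of mt-Td -3.67. Without sequences that end in the CCA and hold under 18 gene bases, an alternative chosen after seeing the data, mt-Tw had 13 nuclear and 12 cytoplasmic reads and no call, and no other of the 18 tRNAs changed its call.

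A further 8 tRNAs were lower in the nuclear library with fewer reads. mt-Tf (phenylalanine) had 4 nuclear and 47 cytoplasmic reads, a cytoplasmic excess of 11.5-fold (4.21 to 44.0), and mt-Ta (alanine) had 10 and 111, 10.9-fold (5.70 to 23.3). mt-Ty (tyrosine) had 11 and 81 reads, 7.21-fold (3.83 to 15.0), and mt-Te had 22 and 126, 5.61-fold (3.55 to 9.27). mt-Tl2, the second leucine tRNA, had 13 and 62 reads, 4.67-fold (2.54 to 9.26). All of these intervals overlapped, so that no order among them was resolved. mt-Th (histidine) had 11 and 49 reads, 4.36-fold (2.24 to 9.31), mt-Ti (isoleucine) 14 and 62, 4.34-fold (2.40 to 8.39), and mt-Tc (cysteine) 20 and 45, 2.20-fold (1.28 to 3.94). The call of mt-Tc ended under the miRNA total, at a log2 ratio of -0.24, under the mitochondrial rRNA total, at -0.87, and with a pseudocount of 5 reads. With only sequences that match no other transcript, mt-Ty kept 7 and 31 reads, at a log2 ratio of -2.04, and mt-Tf 4 and 42, at -3.21, both under the 50 reads needed for a call. Without its most-read sequence mt-Th also fell under that minimum, with 11 and 37 reads, as did mt-Tf with 3 and 44, and with full-length matches only mt-Tf had 4 and 36.

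The other tRNAs with enough reads were not lower in the nuclear library by this rule. mt-Tp, the proline tRNA, was the only one called higher in RPM, with 94 nuclear and 31 cytoplasmic reads, 3.09-fold (2.04 to 4.81). mt-Tq had 122 and 79 reads, a nuclear excess of 1.58-fold (1.18 to 2.12), an interval above 1 but a ratio short of 2-fold. mt-Tv had 323 and 501 reads, a cytoplasmic excess of 1.52-fold (1.32 to 1.75), and mt-Tl1 297 and 496, 1.64-fold (1.41 to 1.90). Without its most-read sequence mt-Tv was lower, at a log2 ratio of -1.13, and TMM factors and the median of ratios called both it and mt-Tl1 lower. These 2 tRNAs and mt-Ts2 led both libraries, and together held 59.1% of nuclear and 63.5% of cytoplasmic member reads.

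For 3 tRNAs the interval held 1 and no difference was detectable at this depth. mt-Tm had 113 nuclear and 139 cytoplasmic reads, a nuclear over cytoplasmic ratio of 0.830 (0.642 to 1.07), mt-Tn (asparagine) 25 and 30, 0.851 (0.480 to 1.50), and mt-Ts1, the other serine tRNA, 25 and 31, 0.823 (0.466 to 1.44). Under 50 reads, mt-Tt (threonine) had 8 and 40 reads, mt-Tg (glycine) 11 and 30, mt-Tk (lysine) 7 and 25, and mt-Tr (arginine) 1 and 10.

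**Figure D1:**
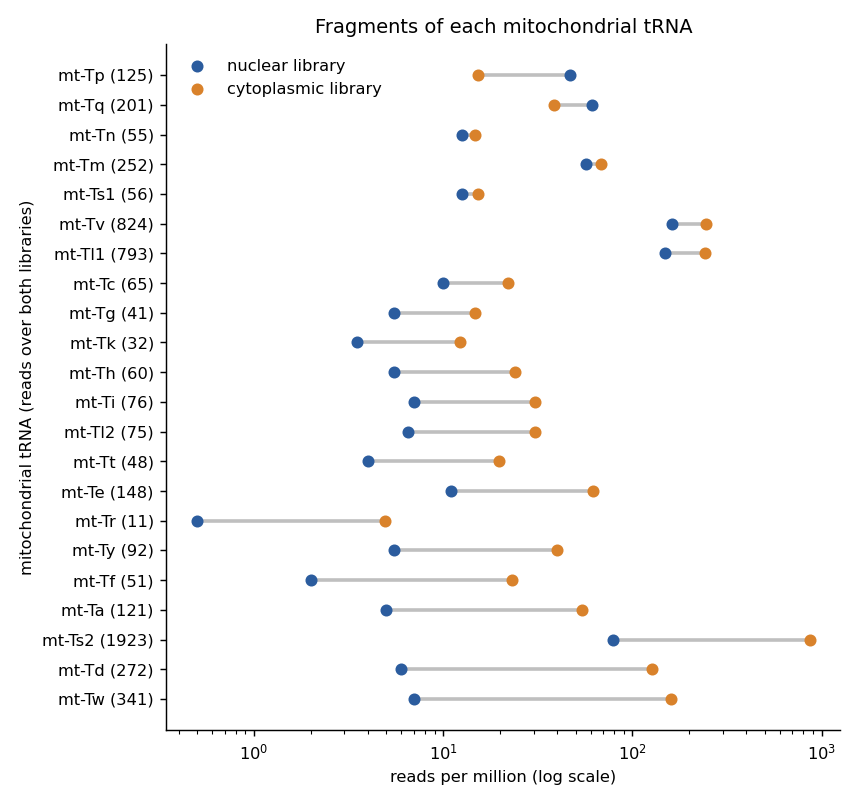
Level of the fragments of each of the 22 mitochondrial tRNAs in the nuclear (blue) and cytoplasmic (orange) library in RPM on a log scale, ordered by ratio, with the reads over both libraries in brackets. mt-Ts2 reached 865 RPM in the cytoplasmic and 78.5 RPM in the nuclear library, and in RPM only mt-Tp and mt-Tq were higher in the nuclear library, mt-Tq not under TMM or the median of ratios.

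Both strands contributed. The 14 tRNAs encoded on the plus strand had 985 nuclear and 3814 cytoplasmic reads, a cytoplasmic excess of 3.79-fold (3.54 to 4.07), and 7 of the 10 with enough reads were lower in the nuclear library, 0 higher. The 8 on the minus strand had 329 and 534 reads, a cytoplasmic excess of 1.59-fold (1.38 to 1.83), with 4 lower and 1 higher of 8. The plus strand holds mt-Ts2, mt-Tw and mt-Td, all with a high cytoplasmic excess and picked out after the values were seen. Its other tRNAs had 802 and 1461 reads, an excess of 1.78-fold (1.64 to 1.95), and this interval overlapped that of the minus strand. Leaving those tRNAs out could only lower the excess, and nothing was left out of the minus strand.

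The fragments also differed by their position within the tRNA. A fragment was counted as 5′ when its first base was base 1 to 3 of the tRNA, as 3′ when its last base was among the last 3 gene bases or in the CCA, and as internal otherwise. The 5′ fragments had 612 nuclear and 2241 cytoplasmic reads, a cytoplasmic excess of 3.59-fold (3.28 to 3.93). Internal fragments had 621 and 1117 reads, an excess of 1.76-fold (1.60 to 1.95). The 3′ fragments had 81 and 990 reads, an excess of 12.0-fold (9.54 to 15.2). Their share of member reads was 6.16% in the nuclear library (4.93 to 7.60) and 22.8% in the cytoplasmic one (21.5 to 24.0). With each distinct sequence counted once, the shares were 13.5% and 15.1%. The intervals of the 3 ratios did not overlap each other. Short sequences that end in the CCA weighed on the 3′ class, as their gene part is under 18 bases and fragments cut at the last gene base had to have 18. Without them the 3′ fragments had 69 and 393 reads, an excess of 5.58-fold (4.31 to 7.32), and made up 5.30% of nuclear (4.15 to 6.66) and 10.5% of cytoplasmic member reads (9.51 to 11.5). Of these reads mt-Td alone had 7 and 209, so this excess rested largely on 1 tRNA. With genes of 59 to 75 bases and no listed sequence over 39 nt, whole tRNAs could not be listed.

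Of 59 combinations of tRNA and position, 19 had at least 50 reads. All 5 of the 3′ groups were lower in the nuclear library, and remained so under the 4 other scalings. Without the short CCA-ended sequences mt-Td and mt-Te remained lower, while mt-Tw, mt-Tv and mt-Ts2 fell under 50 3′ reads. Of the 10 internal groups 7 were lower and 1 higher, and of the 4 groups at the 5′ end 1 was lower and 0 higher. TMM factors and the median of ratios gave 8 internal and 2 5′ groups lower, while the miRNA and mitochondrial rRNA totals gave 2 5′ groups higher. Leaving out the 3′ fragments and mt-Ts2, the other members had 1088 nuclear and 1645 cytoplasmic reads, a cytoplasmic excess of 1.48-fold (1.37 to 1.60).

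**Figure D2:**
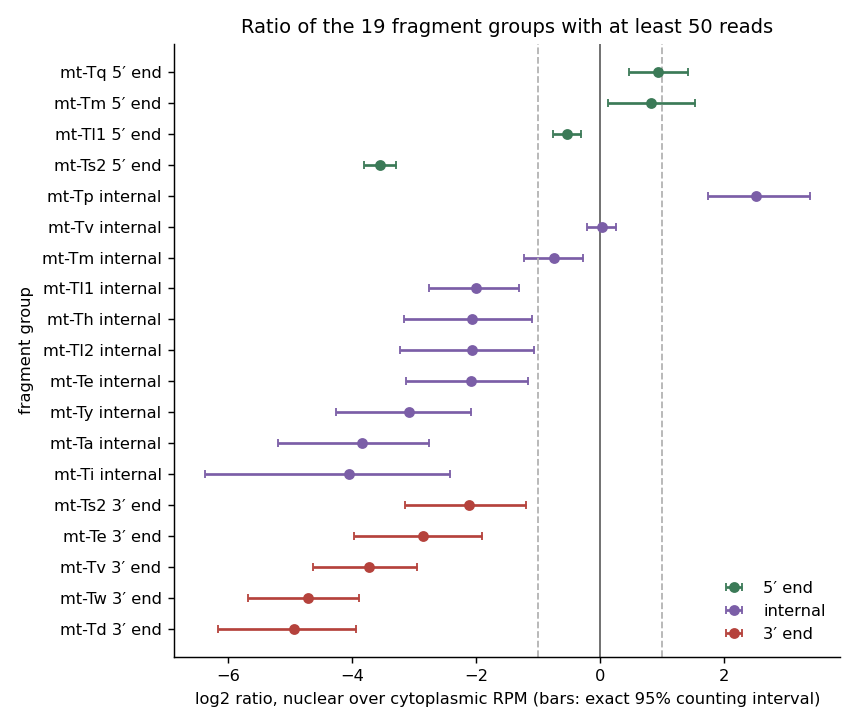
Log2 ratio of nuclear over cytoplasmic RPM for the 19 combinations of tRNA and fragment position with at least 50 reads, with exact 95% counting intervals, a solid line at equal levels and dashed lines at 2-fold. All 5 of the 3′ groups (red) lie below the lower dashed line, and internal fragments of mt-Tp lie above the upper one.

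The 5′ class was dominated by mt-Ts2. Its 5′ fragments had 142 nuclear and 1692 cytoplasmic reads, a cytoplasmic excess of 11.7-fold (9.83 to 14.0), and 96.1% of these reads began exactly at base 1. The 5′ fragments of the other tRNAs had 470 and 549 reads, a cytoplasmic excess of 1.14-fold (1.01 to 1.30). The cytoplasmic excess of the whole class therefore rested mostly on mt-Ts2.

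From base 1, the mt-Ts2 fragments formed a ladder of 3′ ends at and just before the anticodon, bases 20 to 22 of this short tRNA. The fragment ending at base 18 had 12 nuclear and 189 cytoplasmic reads, that at base 19 had 32 and 265, and that at base 20, printed in capitals above, 30 and 569. The fragment ending at base 21 had 51 and 340 reads and that at base 22 had 11 and 129. Each was lower in the nuclear library, by 6.53-fold at base 21 (4.86 to 8.95) to 18.6-fold at base 20 (12.9 to 27.8). Those intervals did not overlap, so the ends were not distributed alike in the 2 libraries.

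At the 5′ end of mt-Tl1, which had 274 nuclear and 405 cytoplasmic reads in all, values differed by the first base. Fragments that began at base 1 had 247 and 278 reads, a nuclear over cytoplasmic ratio of 0.907 whose interval held 1 (0.761 to 1.08). Those that began at base 3 had 21 and 115 reads, a ratio of 0.186 (0.111 to 0.299), and those that began at base 4, counted as internal, had 16 and 59, a ratio of 0.277 (0.149 to 0.487). The intervals of the fragments with and without the first bases did not overlap. From base 1, the fragment of 21 nt had 71 nuclear and 50 cytoplasmic reads and that of 22 nt had 60 and 38, while that of 26 nt had 19 and 48, a cytoplasmic excess of 2.48-fold (1.43 to 4.46).

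mt-Tm showed the same order of values. From base 1 it had 47 nuclear and 19 cytoplasmic reads, a nuclear excess of 2.52-fold (1.45 to 4.56), and from base 5 it had 1 and 27. Its leading internal fragment, aggtcagctaattaagctatcggg from base 5 to base 28 (chrM:3849-3872), had 0 nuclear and 15 cytoplasmic reads. All 170 of the 5′ reads of mt-Tq began at base 1, with 111 nuclear and 59 cytoplasmic reads, a nuclear excess of 1.92-fold (1.39 to 2.68). Its fragment of 22 nt, in capitals above, had 28 and 8 reads.

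**Figure D3:**
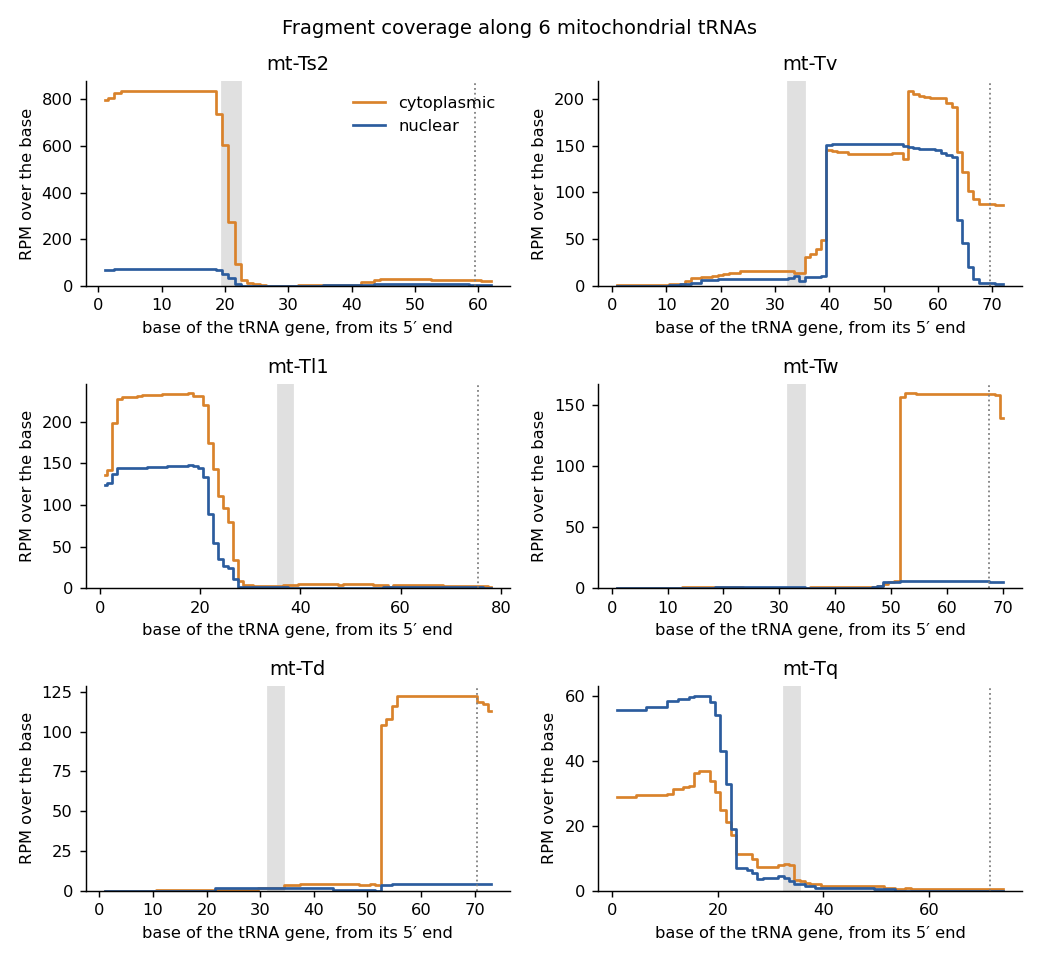
Reads covering each base of 6 mitochondrial tRNAs, in RPM, against the base counted from the 5′ end of the gene, for the cytoplasmic (orange) and nuclear (blue) library, with the anticodon in grey and a dotted line after the last gene base, where the added CCA begins. Coverage of mt-Ts2, mt-Tl1 and mt-Tq lies at the 5′ end, that of mt-Tw and mt-Td at the 3′ end, and mt-Tv has an internal step at base 40 in both libraries and a later one at base 55 in the cytoplasmic library.

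The 3′ fragments were led by mt-Tw, mt-Td and mt-Tv. mt-Tw had 12 nuclear and 323 cytoplasmic 3′ reads, a cytoplasmic excess of 26.4-fold (14.9 to 51.6). The fragment in capitals above, 19 nt from base 52 to the end of the CCA (chrM:5001-5016 without the CCA), had 1 nuclear and 269 cytoplasmic reads. Its length split the 2 libraries, since 3′ fragments of mt-Tw of 18 to 21 nt had 1 and 320 reads and those of 22 to 29 nt had 11 and 3. The nuclear reads were therefore mostly longer forms that began before base 52. All but 11 nuclear and 8 cytoplasmic of these 3′ reads were CCA-ended with under 18 gene bases, and without them no difference was detectable, with a cytoplasmic over nuclear ratio of 0.713 (0.249 to 1.94).

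mt-Td had 8 nuclear and 250 cytoplasmic 3′ reads, a cytoplasmic excess of 30.6-fold (15.3 to 71.7). Its fragment of 21 nt from base 53 had 7 and 189 reads, so both libraries were led by the same sequence. mt-Tv had 14 and 190 3′ reads, an excess of 13.3-fold (7.73 to 24.8), led by caatgaacactctgaCCA from base 55 (chrM:1079-1093, the added CCA in capitals), with 4 and 173 reads. mt-Te had 10 and 74 reads, 7.25-fold (3.73 to 15.7), and mt-Ts2 had 12 and 53, 4.33-fold (2.28 to 8.90), led by aaacatggctttcttaCCA (chrM:11656-11671) with 3 and 16 reads. Without the short CCA-ended sequences the excess was 29.3-fold for mt-Td (13.9 to 73.7) and 6.86-fold for mt-Te (3.52 to 14.9), from 7 and 209 and from 10 and 70 reads. For mt-Ts2 it was 3.27-fold (1.51 to 7.82), from 9 and 30 reads.

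mt-Tv differed by position within 1 tRNA. Its internal fragments had 309 nuclear and 310 cytoplasmic reads, a ratio of 1.02 (0.866 to 1.19), whereas its 3′ fragments had a ratio of 0.0752 (0.0403 to 0.129). That contrast rested on short CCA-ended sequences, without which mt-Tv had 10 and 15 3′ reads, a cytoplasmic excess of 1.47-fold whose interval (0.618 to 3.66) held 1. Of the internal reads, 74.3% began at base 40, which is 88.3% of the nuclear and 60.3% of the cytoplasmic ones. The fragment of 24 nt in capitals above had 134 nuclear and 78 cytoplasmic reads, a nuclear excess of 1.75-fold (1.32 to 2.35), and overlaps the start of the 3′ fragment.

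The CCA was present on most 3′ fragments. Of the 81 nuclear 3′ reads, 49 carried C, CC or CCA after the last gene base, which is 60.5% (49.0 to 71.2), and of the 990 cytoplasmic ones 891, which is 90.0% (88.0 to 91.8). A complete CCA was on 54.3% and 82.5%. The cytoplasmic excess of fragments with any of it was 17.8-fold (13.4 to 24.3), and that of fragments with no added base, 32 and 99 reads, was 3.03-fold (2.02 to 4.67). Those with no added base include fragments that stop short of the last gene base and so cannot show a CCA. Fragments that reached the last gene base were 4.72% of nuclear and 21.8% of cytoplasmic member reads, against 6.16% and 22.8% for the whole class. A larger part of the nuclear than of the cytoplasmic 3′ reads thus stopped before the last gene base. This widens the gap between 60.5% and 90.0%. Lack of CCA and a cut before the gene end are not separated in these shares and ratios. The lower limit of 18 nt on listed sequences also partly sets the shares with CCA. A fragment without CCA meets it only with 18 gene bases. With at least 18 gene bases in both kinds, 37 of 69 nuclear and 294 of 393 cytoplasmic 3′ reads carried at least the first C, which is 53.6% (41.2 to 65.7) and 74.8% (70.2 to 79.0). The excess of those with CCA was then 7.78-fold (5.52 to 11.3), against 3.03-fold for those without, and these intervals did not overlap. Those without still included fragments that stop before the last gene base, so the contrast is not of the CCA alone. Of the 69 and 393 reads mt-Td had 7 and 209, nearly all of them with CCA.

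The share with CCA differed by tRNA. In the cytoplasmic library all 323 3′ reads of mt-Tw carried at least the first C, as did 242 of 250 of mt-Td, 178 of 190 of mt-Tv and 46 of 53 of mt-Ts2. mt-Te was the exception among the 5, with 18 of 74, or 24.3% (15.1 to 35.7), and 1 of 10 nuclear reads. Its leading fragment, tgaatgctgtgtagaaata (chrM:14071-14089), ended at the last gene base and had 1 and 26 reads. In mt-Tv and mt-Ts2 the nuclear counts with CCA were 6 of 14 and 4 of 12. The reads without CCA include those that stop before the last gene base and so cannot show it. Most such nuclear reads of mt-Tv and mt-Te stopped there, whereas most of those of mt-Ts2 reached the last gene base. For mt-Te in the cytoplasmic library, coverage was 26.9 RPM at the last gene base and 8.82 RPM at the first C. Most of its cytoplasmic reads that reached the gene end therefore lacked the CCA.

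Of the members, 39 sequences ended in the CCA and held under 18 gene bases, so that they matched only once the CCA was added to the gene. They had 12 nuclear and 597 cytoplasmic reads, a cytoplasmic excess of 48.7-fold (27.7 to 94.9). The other 919 members had 1302 and 3751 reads, an excess of 2.82-fold (2.65 to 3.01).

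Other unmatched 3′ bases, not part of a CCA end, were on 188 member sequences with 62 nuclear and 282 cytoplasmic reads, 4.72% and 6.49% of member reads. None of these bases continued the annotated mitochondrial sequence. Inside a gene this was fixed by the matching, and past a gene end it could be seen only where another annotated gene adjoins. The most frequent were a single A, with 20 and 89 reads, a single T, with 5 and 67, and AA, with 7 and 29. A single unmatched last base cannot be told from a substitution or a sequencing error at that base. Sequences with such an A or T were lower in the nuclear library by 4.36-fold (2.66 to 7.48) and 13.1-fold (5.35 to 41.7). Of those with T, 0 nuclear and 26 cytoplasmic reads were 1 mt-Ts2 sequence, from base 1 to base 20 and then T. It can also be read as the fragment to base 21 with T in place of C. All mt-Ts2 fragments had a cytoplasmic excess of 11.0-fold, so the value for T partly repeats that of mt-Ts2.

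Internal fragments had the widest range of ratios between tRNAs. mt-Tp internal fragments had 90 nuclear and 16 cytoplasmic reads, a nuclear excess of 5.74-fold (3.35 to 10.5), the only one of the 19 groups called higher in RPM and under TMM and the median of ratios. The 5′ fragments of mt-Tm and mt-Tq were also called higher under the miRNA total, at log2 ratios of 1.69 and 1.82, and under the mitochondrial rRNA total, at 1.06 and 1.19. The internal fragments of mt-Tp had no leading sequence. The first among them, ttgggtgctggtggtgggg (bases 30 to 48, chrM:15375-15393), had 5 and 3 reads, and 62 of the 90 nuclear reads spanned the anticodon. At the other end, mt-Ti internal fragments had 3 and 51 reads, a cytoplasmic excess of 16.7-fold (5.39 to 83.4).

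mt-Ta internal fragments had 7 nuclear and 103 cytoplasmic reads, a cytoplasmic excess of 14.4-fold (6.75 to 36.8), of which 7 and 101 lay after the anticodon. The leading sequence, caatagatgtaggatgaa (bases 37 to 54, chrM:5033-5050), had 0 and 17 reads. mt-Ty internal fragments had 9 and 78 reads, 8.49-fold (4.25 to 19.3), mostly across the anticodon, led by gagtaagcattagactgta (bases 13 to 31, chrM:5296-5314) with 0 and 7 reads. Of the mt-Ty reads, 4 nuclear and 50 cytoplasmic ones also matched a retained intron of Cep295, and their origin cannot be told apart, so the call of mt-Ty rests on reads shared with that transcript.

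The anticodon was placed by its flanking stem, and fragments with an end inside the anticodon had 164 nuclear and 1191 cytoplasmic reads, 12.5% and 27.4% of member reads, a cytoplasmic excess of 7.12-fold (6.04 to 8.43). Fragments wholly before it had 567 and 1211 reads, 2.09-fold (1.89 to 2.32). Those wholly after it had 428 and 1493, 3.42-fold (3.07 to 3.81), and those that spanned it 155 and 453, 2.86-fold (2.38 to 3.46). Most of the reads cut inside were the mt-Ts2 ladder. Without mt-Ts2, 80 nuclear and 149 cytoplasmic reads had an end inside an anticodon, 6.91% and 5.77% of the remaining reads, an excess of 1.82-fold (1.38 to 2.43).

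Lengths differed between the libraries in a direction opposite to that of all reads. Of the member reads, 45.6% of the nuclear (42.9 to 48.3) and 74.3% of the cytoplasmic ones (73.0 to 75.6) were of 18 to 21 nt. Over all listed reads these lengths made up 44.1% and 32.9%, and for the members without mt-Ts2 they made up 40.1% and 64.9%. The median member read was 22 nt in the nuclear and 20 nt in the cytoplasmic library, and the longest was 29 nt. No member had 30 to 39 nt, the range of longer tRNA fragments, which allows a share of up to 0.280% among nuclear and 0.0848% among cytoplasmic member reads. The libraries held 1237 and 1959 reads of those lengths in all.

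The cytoplasmic excess was smaller for the longer fragments of each position class, but for 5′ fragments this rested on mt-Ts2. For 3′ fragments, those of 18 to 21 nt had 32 nuclear and 904 cytoplasmic reads, a cytoplasmic excess of 27.7-fold (19.5 to 40.7), and those of 22 to 29 nt had 49 and 86, 1.72-fold (1.20 to 2.49). Without mt-Tw these became 18.5-fold (12.9 to 27.4) and 2.14-fold (1.44 to 3.23). Without the short CCA-ended sequences of every tRNA those of 18 to 21 nt had 20 and 307 reads, 15.0-fold (9.57 to 25.0), and the longer ones were as before. Most of these 307 cytoplasmic reads were of mt-Td, which had 7 and 209 3′ reads of any length without those sequences. For internal fragments the ratios were 2.85-fold (2.44 to 3.34) and 1.17-fold (1.02 to 1.34), and without mt-Tv, the main source of the longer ones, 2.83-fold (2.40 to 3.35) and 2.06-fold (1.65 to 2.58), intervals that overlapped. For 5′ fragments they were 4.76-fold (4.23 to 5.35) and 2.05-fold (1.77 to 2.38). Within mt-Ts2 they were 11.4-fold (9.50 to 13.8) and 14.3-fold (8.32 to 26.6), intervals that overlapped. Without mt-Ts2 the shorter 5′ fragments had 220 and 201 reads, a ratio of 0.895-fold (0.736 to 1.09), and the longer ones 250 and 348, 1.36-fold (1.16 to 1.61), so the order turned. These leave-outs were chosen after seeing the data.

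**Figure D4:**
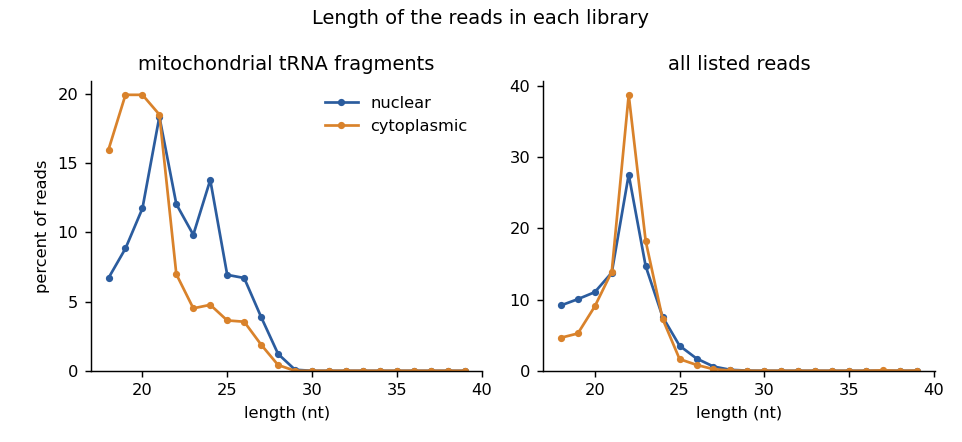
Share of reads at each length from 18 to 39 nt, in percent, for the mitochondrial tRNA fragments (left) and all listed reads (right) of the nuclear (blue) and cytoplasmic (orange) library. Member reads of 18 to 21 nt were 45.6% of nuclear and 74.3% of cytoplasmic members, against 44.1% and 32.9% of all reads.

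Sequences that differed from a tRNA gene at a single base, and matched no other transcript, were not members but gave a further view of these RNAs. There were 367 of them, from all 22 tRNAs, with 255 nuclear and 489 cytoplasmic reads, and 137 and 234 of these reads, 53.7% and 47.9%, had the difference at base 9. Positions are counted from 1 at the 5′ end of the gene, and a substitution is written as the gene's base, its position and the base read. Nuclear copies of mitochondrial DNA outside annotated transcripts were not searched, and sequencing errors and allele differences were not separated.

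In mt-Tl1 the reads with a substitution at base 9 were 24.1% of the nuclear (20.2 to 28.4) and 23.8% of the cytoplasmic reads over that base (20.7 to 27.1). The leading one was G9T, with 66 and 121 reads, followed by G9C with 27 and 34 and G9A with 12 and 18. The shares in the libraries differed by less than their counting intervals. A single change at another base, G6A, had 34 and 64 reads, and substitutions at base 6 made up 7.82% and 8.89% of the reads there. At base 10 the share over all tRNAs was 0.229% and 0.177%.

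The share at base 9 was highest for the tRNAs whose gene holds A there. Of 13 tRNAs with A at base 9, 10 had reads over it and all 10 had substitutions, found in 24 of 34 nuclear and 51 of 88 cytoplasmic reads, 70.6% (52.5 to 84.9) and 58.0% (47.0 to 68.4). With G, 6 tRNAs gave 18.9% (15.8 to 22.4) and 21.1% (18.4 to 24.0), and without mt-Tl1 the other 5 gave 3.42% (1.12 to 7.81) and 6.62% (3.07 to 12.2). With C or T, 3 tRNAs, mt-Ts2 among them, gave 1.22% (0.252 to 3.52) and 0.0537% (0.00136 to 0.299). The nuclear interval for C or T overlapped that for G without mt-Tl1, and the cytoplasmic one did not. Among the A tRNAs the reads over both libraries were 13 of 14 in mt-Tt and in mt-Tw, 13 of 18 in mt-Tn, 10 of 15 in mt-Tl2, 8 of 22 in mt-Tk and 5 of 24 in mt-Tp, which is 20.8% (7.13 to 42.2) there. This split by base was chosen after the values were seen.

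**Figure D5:**
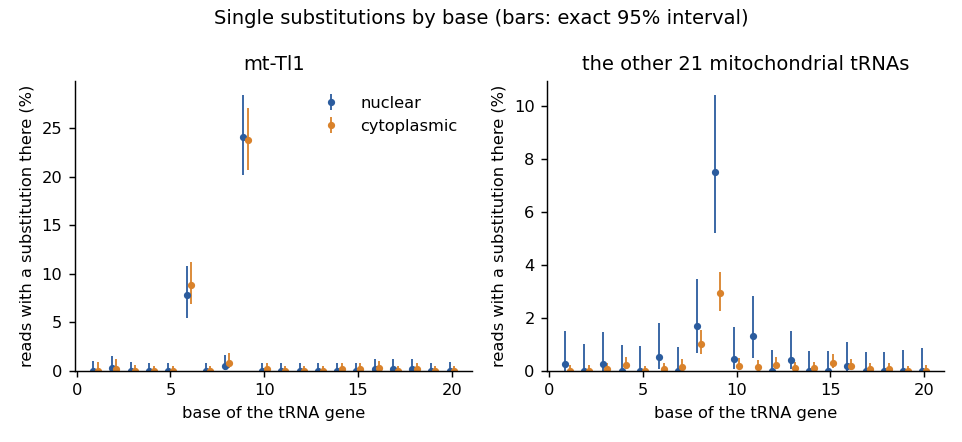
Percent of reads over each of the first 20 bases that carry a single substitution there, with exact 95% intervals, for mt-Tl1 (left) and the other 21 mitochondrial tRNAs (right) in the nuclear (blue) and cytoplasmic (orange) library. Base 9 stands out in both panels, at 24.1% and 23.8% in mt-Tl1, and base 6 in mt-Tl1 only.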

How the data were processed

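Small RNA from 1 nuclear and 1 cytoplasmic fraction was sequenced. The authors deposited 1 table of 538100 sequences with their RPM in both libraries. The submitters' processing notes name CASAVA and the build mm10. What trimming, length limit or filter was applied is not given in the sources used here. Columns carry no sample titles and were assigned to the libraries by their last letter, N or C. All values above 0 (100%) were whole multiples of 1 read within a tolerance of 0.1 read, which gave 2000019 nuclear and 2041383 cytoplasmic reads.

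Sequences were matched (Python 3.11.15) to the 22 mitochondrial tRNA genes, first over their full length, then to the gene with CCA added, then after removal of up to 3 unmatched 3′ bases with at least 18 left. A C or CC that continued the gene was not counted as added. The same annotation served for other RNAs, whose sequences were summed into entries by name. No genome was used, so matches outside transcripts were not sought. The matching and the calls were tested on simulated data.

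Ratios are of RPM, with Clopper-Pearson 95% intervals, and for ratios these are conditional on the reads of both libraries. With 1 library in each group no count model had residual degrees of freedom, so no p-value is given. edgeR 4.0.16 gave TMM factors only. All 22 tRNAs are reported, those with at least 50 reads over both libraries with their ratio and the others by reads. Sequences are printed for the 8 tRNAs with most reads and as the leading fragment of a position. Members, lists and alternatives were chosen with earlier results of these data known. Alternatives were other scalings, read minimums, pseudocounts, end windows and matching rules.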

Additional observations from a re-analysis of the deposited data

How the results depend on the processing

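The log2 ratio of all members, -1.70, stayed below 0 under every alternative run. It was -2.35 with TMM factors, -2.41 with the median of ratios, -0.81 scaled to the miRNA total and -1.44 scaled to the mitochondrial rRNA total. It was -1.53 without the sequence with most reads, -1.59 with sequences of 1 substitution and -2.47 with each distinct sequence counted once. The last divides the 327 nuclear and 768 cytoplasmic member sequences by all distinct sequences of each library, 400087 and 169208, and not by reads. Chosen after seeing the data, the log2 ratio of all members was -1.50 without CCA-ended sequences of under 18 gene bases and -1.13 without mt-Ts2. The number of tRNAs called lower ranged from 9 to 15, and the number called higher was 0 under TMM and, likewise, median-of-ratios scaling, and 2 with the miRNA total. With ends taken exactly, 3′ fragments were 4.72% of nuclear and 5′ fragments 46.5% of cytoplasmic reads. Over distinct sequences, 5′ fragments were 24.5% and 20.3% and 3′ fragments 13.5% and 15.1% in the nuclear and cytoplasmic library, and 74.1% of cytoplasmic 3′ sequences had CCA. Without the sequence with most reads, 5′ fragments were 44.2% and 3′ fragments 26.2% of cytoplasmic reads, and 86.3% of cytoplasmic 3′ reads had CCA. With complete CCA only it was 82.5%. The cause of these shifts was not tested. No paired analysis was possible because each group has 1 library. Depth limits the 4 tRNAs under 50 reads and most nuclear 3′ groups.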

Other observations

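Sequences antisense to a mitochondrial tRNA gene were rare. They were 45 sequences with 50 nuclear and 48 cytoplasmic reads, of which mt-Tp had 22 and 17, mt-Ts1 17 and 18, and mt-Tq 8 and 9. These 3 genes are on the minus strand, so their antisense reads lie on the plus strand.

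Sense sequences that crossed a gene end into the neighbouring sequence, and so were not cut at that end, were 3 in number, with 2 nuclear and 2 cytoplasmic reads, from mt-Tl1 and mt-Tq. Only 21 of the 44 gene ends have 18 flanking bases inside annotated genes, and the other ends were not searched.

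Among the mitochondrial mRNAs, 6 of 13 had at least 50 reads, of which 4 were called lower in the nuclear library and 0 higher. mt-Co1, a subunit of cytochrome c oxidase, had most, with 564 nuclear and 813 cytoplasmic reads. mt-Nd6, a subunit of complex I and the only mRNA of the minus strand, had 44 and 5 reads, below the minimum of 50 and higher in the nuclear library.

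mt-Th had substitutions at base 8 in place of base 9, with A8G at 0 nuclear and 11 cytoplasmic and A8T at 2 and 4 reads, and none of its 21 reads over base 9 was substituted, which allows a share of up to 16.1%. mt-Td had C59A at 0 and 9 reads.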
